A study of Mus musculus with 4 samples.

Results

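The genes described are 9 serotonin receptor genes outside the Htr2 family, chosen by symbol from the 32285 genes of the count matrices. They are Htr1a, Htr1b, Htr1d, Htr1f, Htr3a, Htr4, Htr5a, Htr6 and Htr7. Single-nucleus RNA sequencing had been run on cerebral cortex of C57BL/6J mice at post-natal day 90. The Risperidone pool came from mice injected intraperitoneally each day with 4 mg/kg risperidone, a dopamine and serotonin receptor antagonist used as an antipsychotic, for 21 days from post-natal day 22, and the Saline pool from mice given saline over the same days. The risperidone stock had been made in DMSO, and whether the saline injections held DMSO is not given in the sources used here, so drug and vehicle cannot be told apart. Both groups were then left without injections until the cortex was taken. Right hemicortices of male and female mice were joined into 1 pool per condition, and each pool was loaded on 2 lanes of the droplet instrument. The 2 lanes of a pool are technical repeats, so animals, pool and treatment cannot be told apart, no test between conditions was possible, and each difference below is a difference between 2 pools with its counting error only.

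After removal of doublet-like nuclei, 26044 and 26386 nuclei of the saline lanes were used, and 23055 and 21115 of the risperidone lanes. The lanes differed in depth, with medians of 3297 and 4049 UMIs (unique molecular identifiers, 1 per captured RNA molecule) per nucleus under saline against 5648 and 7766 under risperidone as deposited. Between 160 and 221 barcodes were shared by any 2 lanes. Nuclei were grouped into classes by clustering without the receptor genes and named from marker UMIs, and the classes included 4740 nuclei with markers of striatal spiny projection neurons (SPN), which are not a cell type of the labelled cortex. A level is given as CPM, the UMIs of a gene per 1000000 UMIs of that class. In bulk sums of this kind, fewer nuclei expressing a gene and less RNA per nucleus cannot be told apart.

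Serotonin reaches the cortex through fibres of the raphe nuclei and acts on receptors of several families. Receptors of the Htr1 family and Htr5a couple to inhibitory G proteins and lower cyclic AMP, Htr4, Htr6 and Htr7 couple to the stimulatory G protein and raise it, and Htr3a forms the ligand-gated ion channel of the family. In the cortex they are placed on different neurons, and Htr3a is a known mark of interneurons born in the caudal ganglionic eminence, which include the Vip and Sncg interneurons.

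The genes differed in how they are built, which bears on what a nuclear count can hold, since reads in introns were counted. On GRCm38 (GENCODE vM21), Htr1f spans chr16:64924729-65105854, Htr7 chr19:35958734-36057507, Htr1d chr4:136423524-136444398, Htr6 chr4:139061108-139075570, Htr5a chr5:27842149-27855088, Htr3a chr9:48899213-48911099, Htr1b chr9:81628291-81633828 and Htr1a chr13:105443639-105448122. Htr1f is 181126 bases long with 1.42% of it exonic, Htr4 172374 bases with 2.85%, and Htr7 98774 bases with 3.44%, whereas Htr1a is a single exon of 4484 bases. Htr1b overlaps D430036J16Rik on the other strand (2325 UMIs against 1593 of Htr1b) and Htr3a overlaps Gm32335 on the other strand (105 UMIs against 282 of Htr3a).

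The promoters of the most and the least counted members are shown because these 2 genes set the range of the group. They are the 180 bases from 250 to 71 bases before the RefSeq start (GRCm38.p6), all of them before the GENCODE start, read 5′ to 3′ on the gene's strand, with motif matches in capitals. The motifs searched on both strands were the GC box GGGCGG, the TATA box TATAAA and the cyclic AMP response element TGACGTCA. The Htr1f stretch is chr16:65105855-65106034 on the minus strand and the Htr1a stretch is chr13:105443443-105443622 on the plus strand.
Htr1f: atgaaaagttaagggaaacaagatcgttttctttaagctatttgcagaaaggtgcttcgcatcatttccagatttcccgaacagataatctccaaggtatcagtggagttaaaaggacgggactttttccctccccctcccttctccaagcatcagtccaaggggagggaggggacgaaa
Htr1a: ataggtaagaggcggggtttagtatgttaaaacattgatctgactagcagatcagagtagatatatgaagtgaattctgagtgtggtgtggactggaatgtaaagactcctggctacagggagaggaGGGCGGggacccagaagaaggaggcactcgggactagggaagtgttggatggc
The Htr1f stretch held none of these 3 motifs and the Htr1a stretch held 1 GC box. Over the same stretch of 32851 RefSeq promoters, 21.1% held a GC box, 8.37% a TATA box and 0.584% the cyclic AMP response element. Promoter entries were used for 7 of the 9 members, since Htr4 was left out of the search and none was found for Htr3a. Of these 7 the Htr7 stretch had the most G and C bases, at 81.7% against a median of 51.1% over all promoters.

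Over all nuclei used, Htr1f gave 103759 UMIs, Htr4 24328, Htr7 14052, Htr5a 1878, Htr6 1686, Htr1b 1593, Htr1d 609, Htr3a 282 and Htr1a 263. Per kb of exon the level of Htr1f was 75.9 CPM, that of Htr4 9.35 CPM, of Htr7 7.80 CPM and of Htr6 1.36 CPM, while the other 5 lay between 0.11 and 0.66 CPM. Per kb of gene span the range was much narrower, with 1.08 CPM for Htr1f, 0.54 CPM for Htr1b, 0.27 CPM for each of Htr4, Htr5a and Htr7, 0.22 CPM for Htr6, 0.11 CPM for Htr1a, 0.06 CPM for Htr1d and 0.04 CPM for Htr3a. The order between the genes changed with the length used, since Htr1b ranked below Htr4, Htr7, Htr6 and Htr5a per exon length and above all of them per span. Htr1f was the highest on both scales.

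**Figure D1:**
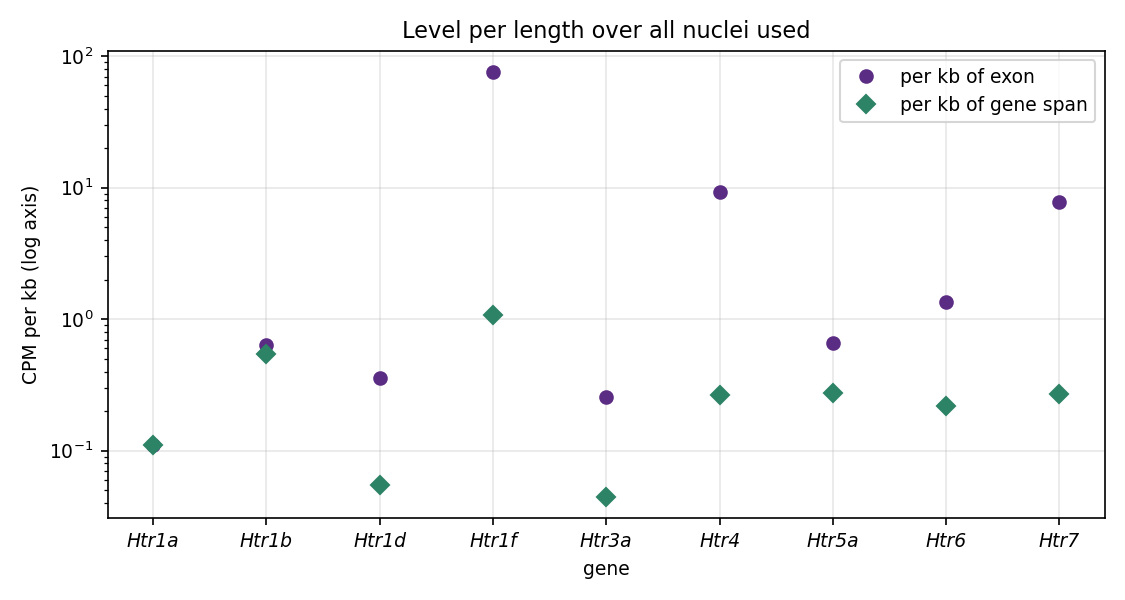
CPM per kb of exon (circles) and per kb of gene span (diamonds) for each of the 9 genes over all nuclei used, on a log axis. Htr1f was the highest on both scales (75.9 and 1.08 CPM per kb), and the genes lay closer together per kb of span than per kb of exon.

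Among the receptors coupled to inhibitory G proteins, Htr1f was counted in every named class and was highest, among them, in L6 CT and L5 ET neurons. In the layer 6 corticothalamic neurons (L6 CT) its level was 542 and 575 CPM in the saline lanes against 565 and 573 CPM in the risperidone lanes. In the layer 5 extratelencephalic neurons (L5 ET), which project below the cortex, it was 493 and 553 CPM in the saline lanes against 533 and 521 CPM in the risperidone lanes. The lanes of these 2 classes overlapped, and both lay above every lane of the next class, the Lamp5 interneurons (Lamp5-IN), with 353 and 372 CPM in the saline lanes against 464 and 433 CPM in the risperidone lanes. Claustrum-like neurons (253 CPM), layer 4/5 intratelencephalic neurons (L4/5 IT, 237 CPM) and near-projecting neurons (NP, 232 CPM) followed with overlapping lanes, and layer 5 intratelencephalic neurons (L5 IT) had 201 CPM. The layer 2/3 intratelencephalic neurons (L2/3 IT), the largest named class, stood at 26.6 CPM (95% Poisson interval 25.6 to 27.6), and the Sncg interneurons at 33.2 CPM (26.8 to 40.6). An unnamed cluster of 1000 nuclei led by B020031H02Rik, Chst9 and Foxp2 had 724 CPM (697 to 752), above any named class. This cluster had 159 CPM of the GABAergic marker Gad2 and 28.2 CPM of the glutamatergic marker Slc17a7, near the 153 and 30.2 CPM of SPN. Its best marker list was that of SPN (mean log2 ratio 1.47), ahead of L6 CT (1.02).

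The share of nuclei with at least 1 Htr1f UMI was high in the same classes. It was 80.9% of 7945 L6 CT nuclei (95% Clopper-Pearson interval 80.0 to 81.8), 84.4% of 2581 L5 ET nuclei and 56.1% of 1553 Lamp5-IN nuclei, against 13.4% of 15224 L2/3 IT nuclei and 7.83% of 4395 astrocytes, a class expected to lack the gene. These classes were sequenced unequally, with median depths of 4688, 7796, 4208, 6260 and 1955 UMIs in that order. With each nucleus thinned to 1500 UMIs, which left out 90, 17, 41, 120 and 870 nuclei, the shares were 52.7%, 49.0%, 36.7%, 4.31% and 5.97%, so that the L2/3 IT share lay below that of astrocytes.

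Intervals and limits here cover counting error only. Nuclei also hold RNA of other cells, and a rough measure of it was taken from the marker lists of astrocytes, oligodendrocytes and endothelial cells: the median, over these lists, of a list's CPM in a class over its CPM in the whole lane. It came to 32.7% in the saline pool and 25.5% in the risperidone pool for glutamatergic neurons. A gene's lane-wide CPM times this share gives the level that RNA of other cells could leave. For Htr1f this was 9.17% of the L6 CT count and 9.63% of the L5 ET count. In L2/3 IT nuclei it was 190% and in astrocytes 189% of the count, so that the counts of both classes lay under the estimate, which is then too high for them.

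**Figure D2:**
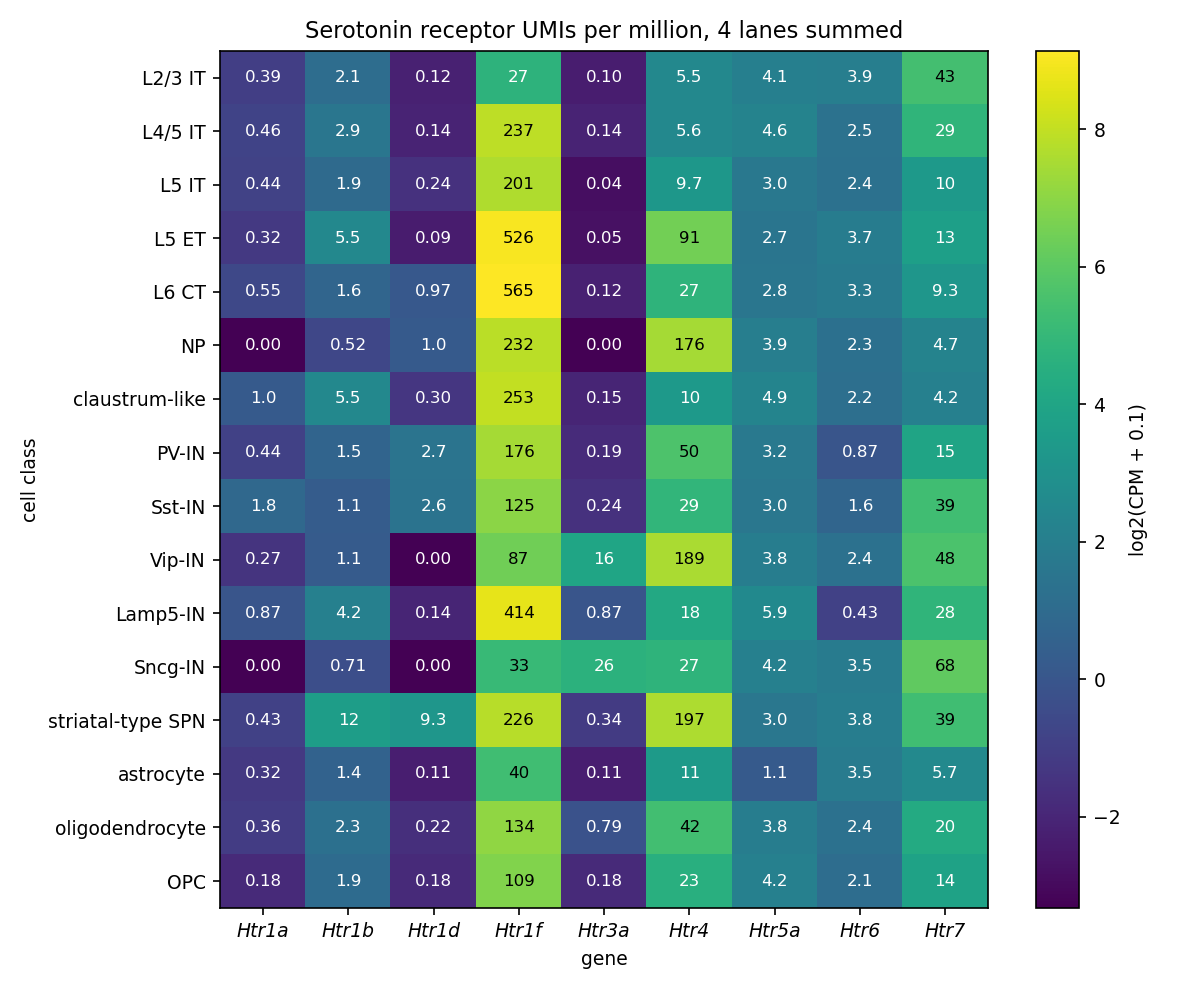
CPM of the 9 genes (columns) in 16 named cell classes (rows), 4 lanes summed, with the color on a log2(CPM + 0.1) scale and the CPM printed in each cell. Colors compare classes within a column, since levels between genes also depend on gene length. Htr1f reaches 565 CPM in L6 CT and 27 CPM in L2/3 IT, Htr4 is high in NP, Vip-IN and SPN, and Htr3a in Vip-IN and Sncg-IN.

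Htr1b and Htr1d, release-controlling autoreceptors and heteroreceptors on axons, were both highest in the SPN nuclei. Htr1b was counted there at 8.20 and 10.5 CPM in the saline lanes against 14.8 and 14.0 CPM in the risperidone lanes. The level over both pools, with a 95% interval of 10.7 to 13.5 CPM, was 2.19 times that of the next named class, the claustrum-like neurons at 5.49 CPM (3.87 to 7.57), whose highest lane of 8.61 CPM overlapped the lowest SPN lane. Claustrum-like neurons held 2.32% of all Htr1b UMIs and 1.27% of all UMIs. For their size 2 unnamed clusters held more, Gm49906/Fyb2 with 2.01% and 0.778% and Adarb2/Reln with 0.942% and 0.463%. Among the named classes L5 ET neurons followed at 5.46 CPM (4.53 to 6.53) and did not differ from the claustrum-like neurons beyond the spread of lanes. Htr1d in SPN was 11.2 and 11.0 CPM in the saline lanes against 6.84 and 8.35 CPM in the risperidone lanes. All of these lay above every lane of the next named classes, the PV interneurons (2.68 CPM) and Sst interneurons (2.56 CPM), which did not differ beyond their lanes. The unnamed B020031H02Rik/Chst9 cluster held 3.61% of all Htr1d UMIs and 0.703% of all UMIs. That is more for its size than in PV-IN, with 7.06% and 3.03%. No Htr1d UMI was counted in Vip-IN or Sncg-IN nuclei, for which 3 counts would be 0.814 and 1.06 CPM. In L2/3 IT nuclei Htr1d gave 12 UMIs, fewer than the estimate for RNA of other cells (242% of the count). Of the SPN nuclei 5.53% held an Htr1b UMI and 4.26% an Htr1d UMI, against 0.296% and 0.0228% of astrocytes. Thinned to 1500 UMIs the SPN shares were 1.66% and 1.45% and those of astrocytes 0.217% and 0.0197%.

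Htr1a, the autoreceptor of serotonin neurons that is also found on cortical pyramidal and other neurons, was barely counted. Its 263 UMIs over all nuclei put it at 0.50 CPM. In glutamatergic neurons it was 0.56 CPM in each saline lane and 0.50 and 0.39 CPM in the risperidone lanes. Its highest class was the Sst interneurons with 22 UMIs, or 1.76 CPM (1.10 to 2.66), and lanes from 0.90 to 3.09 CPM. Each class overlapped the next in its lanes, and 11 of the 22 Sst interneuron UMIs came from the second risperidone lane. NP and Sncg-IN nuclei held none, which allows up to 0.78 and 1.06 CPM (3 counts).

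Htr5a, the other inhibitory-coupled receptor, was spread evenly. Its level lay between 2.73 CPM in L5 ET and 5.94 CPM in Lamp5-IN over the named neuron classes, and each class overlapped the next in its lanes. Astrocytes, with 10 UMIs, had 1.07 CPM (0.515 to 1.97). Other glia lay within the neuron range, with 4.24 CPM in oligodendrocyte precursors (24 UMIs) and 3.81 CPM in oligodendrocytes (53 UMIs). In glutamatergic neurons the 4 lanes gave 4.40 and 4.56 CPM in the saline pool and 3.19 and 3.55 CPM in the risperidone pool.

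Htr4, coupled to the stimulatory G protein, was highest, among the named classes, in 4 neuron classes. It was 184 and 201 CPM in the saline lanes against 206 and 196 CPM in the risperidone lanes of SPN. In Vip-IN it was 135 and 197 CPM in the saline lanes against 206 CPM in each risperidone lane, and in NP neurons 157 and 165 CPM against 189 and 195 CPM. The lanes of these 3 classes overlapped, and all lay above L5 ET, with 84.4 and 75.9 CPM in the saline lanes against 89.9 and 105 CPM in the risperidone lanes. The PV interneurons (50.1 CPM) followed, and L2/3 IT and L4/5 IT neurons had 5.48 and 5.56 CPM. A glutamatergic cluster led by Glis3, Tspan18 and Prox1, which no marker list named, held the highest level, with 267 and 287 CPM in the saline lanes against 364 and 376 CPM in the risperidone lanes. Its nuclei assigned a sex were nearly all female, with 187 and 213 female beside 14 and 7 male in the saline lanes. In the risperidone lanes 159 and 121 were female beside 2 and 2 male. A second one led by Tshz2 and Itprid1 held 177 CPM (169 to 185). Other unnamed clusters also held more Htr4 for their size than L5 ET, with 8.22% of Htr4 UMIs and 4.15% of all UMIs. They were Gm2115/Stac, with 3.77% and 1.10%, and Adarb2/Dlx6os1, with 0.711% and 0.346%.

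In these Htr4-rich classes the share of nuclei with a UMI was 39.2% of SPN, 36.5% of Vip-IN, 37.9% of NP and 38.0% of L5 ET nuclei, against 3.22% of L2/3 IT nuclei and 2.21% of astrocytes. At 1500 UMIs per nucleus the shares were 21.1%, 21.6%, 20.8%, 11.6%, 0.988% and 1.68%. L5 ET nuclei, the deepest of these classes, thus moved below the other 3 once depth was made equal, and their CPM was lower too. RNA of other cells was estimated at 5.40% to 13.1% of the Htr4 count in the 4 classes and at 216% and 219% of it in L2/3 IT and L4/5 IT.

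Htr7, also coupled to the stimulatory G protein, was highest in Sncg-IN, with 56.3 and 64.4 CPM in the saline lanes against 76.7 and 71.9 CPM in the risperidone lanes. Every one of these lanes lay above those of Vip-IN, which had 52.6 and 44.1 CPM in the saline lanes against 49.1 and 48.5 CPM in the risperidone lanes. The L2/3 IT neurons (42.8 CPM), SPN (39.5 CPM) and Sst interneurons (39.4 CPM) followed with overlapping lanes, and L4/5 IT neurons had 28.8 CPM. Deeper layers had less, with 13.0 CPM in L5 ET, 10.2 CPM in L5 IT and 9.26 CPM in L6 CT. Htr7 was thus higher in L2/3 IT than in L6 CT neurons in every lane, and Htr1f, as given above, higher in L6 CT than in L2/3 IT neurons in every lane. The Tshz2 and Itprid1 cluster, named above for Htr4, also held the highest Htr7 level, 91.0 CPM (85.2 to 97.1). L2/3 IT nuclei alone held 30.4% of all Htr7 UMIs while holding 18.8% of all UMIs.

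Htr6, the third receptor coupled to the stimulatory G protein, was low and even, at 3.27 CPM (3.07 to 3.47) in glutamatergic neurons. It was 4.61 and 3.57 CPM in the saline lanes against 4.31 and 3.36 CPM in the risperidone lanes of L2/3 IT neurons, its highest named class, and 3.77 CPM in SPN. Astrocytes had 3.54 CPM on 33 UMIs. Each class overlapped the next in its lanes. A cluster led by Sulf1 and Dnah14, kept out of the glutamatergic sum because the astrocyte marker Bmpr1b was among its leading genes, had 5.66 CPM (4.79 to 6.63). Htr6 was low in 2 interneuron classes, with 0.87 CPM (0.476 to 1.46) in PV-IN and 0.43 CPM (0.0896 to 1.27) in Lamp5-IN.

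Htr3a, the ion channel subunit, was highest in 2 interneuron classes. Sncg-IN held 25.9% and Vip-IN 20.6% of its 282 UMIs, while holding 0.534% and 0.695% of all UMIs. It was 19.3 and 21.5 CPM in the saline lanes against 43.6 and 20.1 CPM in the risperidone lanes of Sncg-IN, on 73 UMIs. In Vip-IN it was 10.5 and 9.24 CPM in the saline lanes against 21.6 and 20.6 CPM in the risperidone lanes, on 58 UMIs. The lanes of these 2 classes overlapped. Among the named classes Lamp5-IN came next at 0.87 CPM, below 2 unnamed clusters led by Adarb2, one with Reln at 7.33 CPM (4.34 to 11.6, 18 UMIs) and one with Dlx6os1 at 6.55 CPM (3.38 to 11.4, 12 UMIs). Glutamatergic neurons gave 34 UMIs, or 0.11 CPM, under the estimate for RNA of other cells (138% of the count). A UMI was held by 12.7% of 498 Sncg-IN nuclei (9.86 to 15.9) and 5.16% of 1007 Vip-IN nuclei (3.88 to 6.72), against 0.0638% of glutamatergic nuclei and 0.0228% of astrocytes, at median depths of 5230, 3358, 5208 and 1955 UMIs. Thinned to 1500 UMIs these shares were 3.76%, 2.24%, 0.0197% and 0.0153%.

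**Figure D3:**
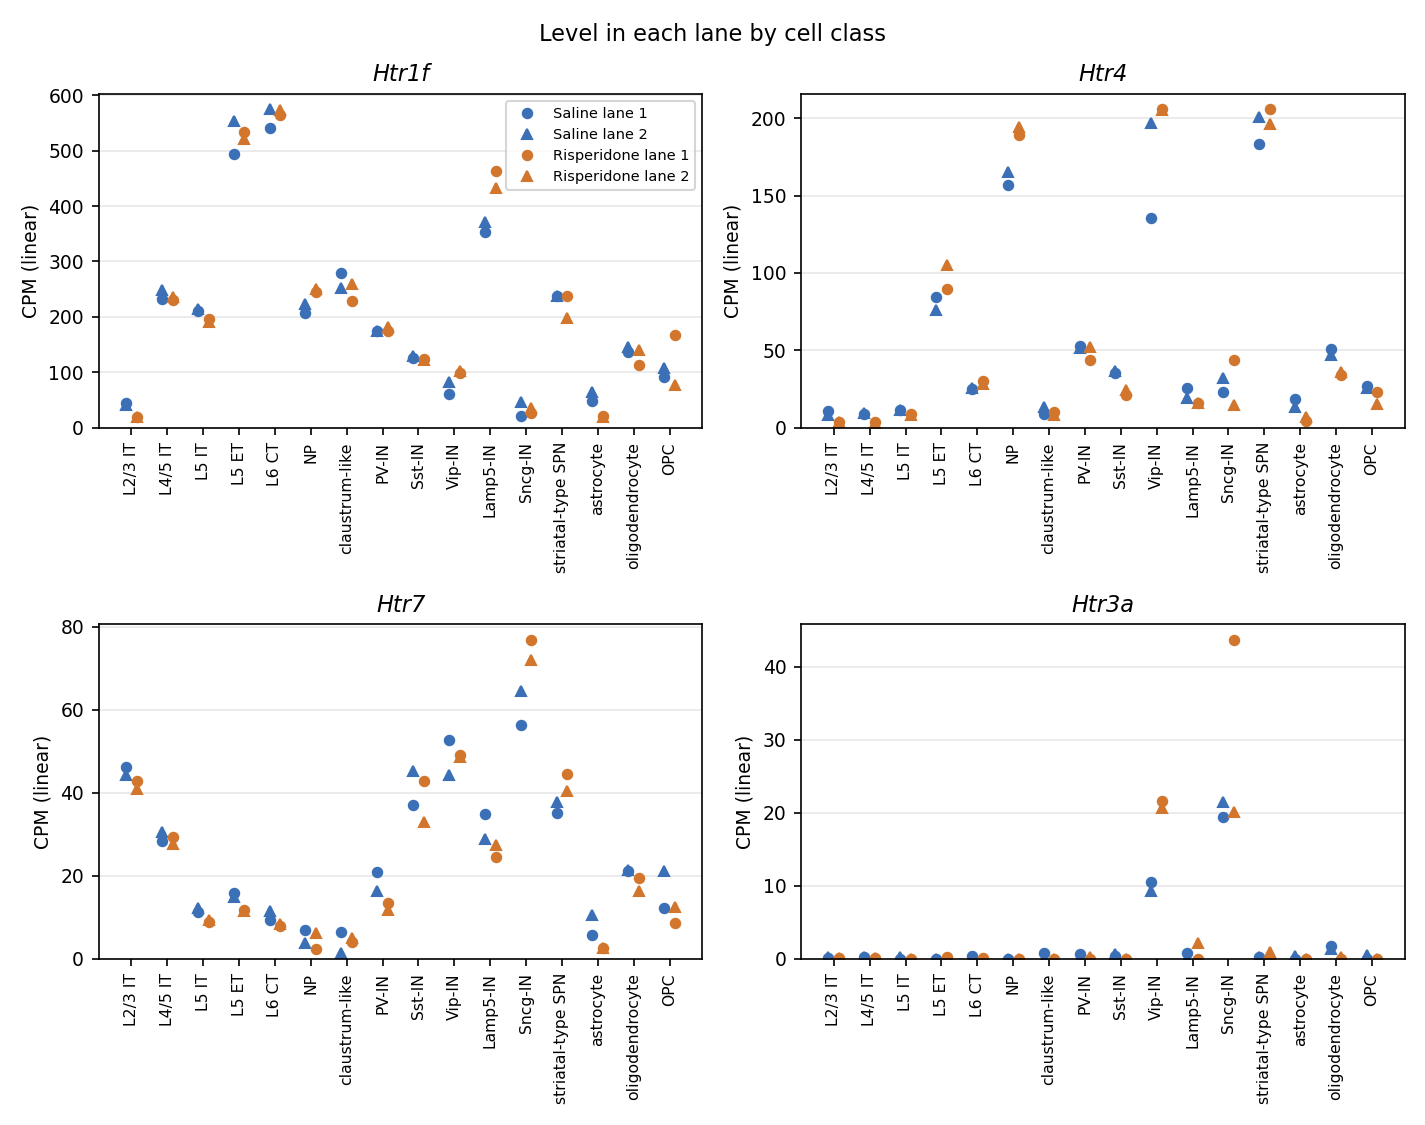
CPM of Htr1f, Htr4, Htr7 and Htr3a in each of the 4 lanes (circles and triangles, saline in blue and risperidone in orange) for 16 cell classes, on linear axes that start at 0. Htr1f lies at 542 to 575 CPM in L6 CT against 18.2 to 44.0 CPM in L2/3 IT, whereas the Htr3a lanes of Sncg-IN and Vip-IN overlap.

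The genes whose class pattern was most like that of each member were sought by Pearson's r of log2(CPM + 1) over 20 classes, which share lanes and depth and are given as a description. For Htr1f they were Gabra5 (r = 0.79), Focad (0.75) and Mfsd4a (0.74), and for Htr4 Ano5, Glra2 (both 0.78) and Kif26b (0.77). For Htr7 they were Camk1g (0.84), Hdac11 (0.81) and Plppr3 (0.78), and for Htr5a Cyp4x1 (0.90), Mgat5b and March4 (both 0.89). For Htr1d they were Tacr1, Mme (both 0.77) and Clic6 (0.76), for Htr1b Tesc, Kcng3 (both 0.73) and Tspear (0.72), and for Htr6 Chst1 (0.80), Mfsd13a (0.79) and Dop1b (0.78). Gabra5 codes for a subunit of the GABA-A receptor and Glra2 for one of the glycine receptor. Htr1a and Htr3a had under 500 UMIs and were not compared in this way.

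The pools were then compared class by class, which addresses whether the receptors differed in adult cortex after the adolescent treatment. A fold is the log2 of the risperidone pool over the saline pool after TMM scaling, with a 95% interval from the counts. A member was taken as past the size rule with at least 50 UMIs in the class, a log2 difference of at least 0.5 and both lanes of a pool on the same side of both lanes of the other. In glutamatergic neurons 8 of the 9 members had 50 UMIs. Of these 1 was lower and 0 were higher, while among all 18398 genes with 50 UMIs 12.4% were lower and 16.0% higher. The share of members past the rule is near the background. The median of the 8 folds was -0.36, against 0.02 over all these genes, and 7 of the 8 were below 0. The sum over glutamatergic neurons held its subclasses in different proportions in the pools: 3454 and 3493 of the 14311 and 14653 saline nuclei were L2/3 IT, against 4304 and 3973 of the 12673 and 11643 risperidone nuclei. With the 7 named subclasses given equal weight the median of the 8 folds was -0.09, and 6 were below 0. This leaves out the unnamed glutamatergic clusters. Of these, the Gm13986/Ndst4 cluster had 1878 and 1987 saline nuclei against 755 and 670 risperidone nuclei. The Gm2115/Stac cluster had 475 and 472 against 120 and 103.

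The member past the rule in glutamatergic neurons was Htr1d, at 0.61 and 0.74 CPM in the saline lanes against 0.40 and 0.35 CPM in the risperidone lanes. The lanes did not overlap, and the log2 fold was -0.95 (-1.43 to -0.48) on 157 UMIs, with -0.34 (-1.02 to 0.37) in female nuclei alone and -2.62 in male nuclei alone, which held under 50 of them. RNA of other cells was estimated at 69.5% of the saline count and 63.4% of the risperidone count, and its part in the difference was not tested. Htr4 went from 40.0 and 40.1 CPM in the saline lanes to 29.1 and 31.5 CPM in the risperidone lanes. The log2 fold was -0.48 (-0.53 to -0.42), with -0.69 in female and -0.20 in male nuclei alone. At equal weight of the named subclasses it was 0.08. The left-out Gm13986/Ndst4, Tshz2/Itprid1, Glis3/Tspan18 and Gm2115/Stac clusters held 7.56%, 7.27%, 5.01% and 3.77% of all Htr4 UMIs, against 44.2% in all glutamatergic neurons. Htr5a had a log2 fold of -0.49 (-0.65 to -0.32) with lanes that did not overlap, and -0.41 at equal weight. Htr1b, at 2.59 and 1.81 CPM in the saline lanes against 2.80 and 3.06 CPM in the risperidone lanes, had 0.37 (0.16 to 0.58) and was the only member above 0, with 0.42 at equal weight. Htr1f had -0.23 (-0.25 to -0.20), and -0.09 at equal weight. Htr7 had -0.07 (-0.13 to -0.01), and -0.23 at equal weight.

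Over the 17 classes compared, 76 of the 153 pairs of a member and a class had 50 UMIs. Of these 19 were lower and 2 higher in the risperidone pool, beside 10.5% lower and 11.8% higher over all genes in the same classes. The sum over glutamatergic neurons holds the nuclei of its subclasses, so these pairs are not independent. The median fold of the 76 pairs was -0.23, and 59 were below 0. The lower pairs came from 6 members, with Htr4 in 8 classes, Htr5a and Htr7 in 3 each, Htr1d and Htr1f in 2 each and Htr6 in 1. In 9 of the 19 the count lay under the estimate for RNA of other cells in both pools, and in 10 it lay above it in both.

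In single classes the share of all genes that were lower ran from 7.94% in Lamp5-IN, 9.08% in L5 IT, 9.29% in L4/5 IT, 9.51% in oligodendrocytes and 9.95% in PV-IN to 10.2% in SPN, 10.4% in L2/3 IT, 10.5% in Sst-IN, 10.9% in L6 CT, 11.5% in L5 ET, 12.2% in oligodendrocyte precursors (OPC) and 15.3% in astrocytes. In astrocytes all 3 members with 50 UMIs were lower, and in no other class were more than 2 lower.

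The 6 largest falls were all among the 9 pairs under that estimate. Htr1f in L2/3 IT neurons was 44.0 and 41.1 CPM in the saline lanes against 18.2 and 18.8 CPM in the risperidone lanes, a log2 fold of -1.27 (-1.38 to -1.16). Htr4 in the same class was 10.7 and 8.06 CPM against 3.38 and 3.74 CPM (-1.44, -1.69 to -1.19), and in L4/5 IT neurons 8.92 and 9.59 CPM against 3.48 and 3.09 CPM (-1.56, -1.90 to -1.23). In astrocytes Htr1f (-1.62), Htr4 (-1.62) and Htr7 (-1.77) fell together, from 56.7, 15.5 and 8.27 CPM in the saline pool to 19.8, 5.43 and 2.60 CPM in the risperidone pool. Several marker lists of other cells moved the same way in these classes, though not all by as much. In astrocytes the summed glutamatergic markers, with 0 of the 6 at 0, went from 884 to 390 CPM (-1.28, -1.36 to -1.20). The 5 markers of L6 CT, the named class richest in Htr1f, went from 567 to 526 CPM there (-0.21, -0.29 to -0.13). The 5 L5 ET markers went from 122 to 116 CPM (-0.18, -0.35 to -0.00). The L6 CT list stood higher in astrocytes than in L2/3 IT neurons. Expression of its genes by astrocytes themselves was not separated from RNA of other cells. The folds of the oligodendrocyte and endothelial lists in astrocytes were -1.16 and -0.86. In L2/3 IT neurons the 9 oligodendrocyte markers went from 223 to 144 CPM (-0.70, -0.74 to -0.66) and the 5 L6 CT markers from 217 to 130 CPM (-0.82, -0.86 to -0.77), again with none at 0. The other lists there had folds of -0.45 (5 L5 ET markers, 82.3 to 63.7 CPM), -0.54 (astrocyte) and -0.65 (endothelial). The part of such RNA in the falls was not tested beyond this, nor was that of the greater depth of the risperidone lanes. In named classes where the same genes were high, the folds of both sexes together were below 0.5 in size. The log2 fold of Htr1f was -0.05 (-0.09 to -0.01) in L6 CT, -0.07 (-0.12 to -0.01) in L5 ET and 0.24 (0.13 to 0.35) in Lamp5-IN, and that of Htr4 was -0.06 (-0.14 to 0.03) in SPN, 0.16 (-0.06 to 0.39) in NP and 0.23 (0.09 to 0.36) in L5 ET. The sexes differed in some of these classes, with 0.23 in female and -0.57 in male nuclei for Htr4 in SPN, and -0.02 in female and -1.52 in male nuclei for Htr1f in claustrum-like neurons (273 and 329 CPM under saline against 103 and 115 CPM in the male nuclei), differences that were not tested. In the Glis3, Tspan18 and Prox1 cluster, for which no fold was computed, the Htr4 lanes given above did not overlap. The nuclei of that cluster assigned a sex were nearly all female, as given above. The Lamp5-IN class was made of 2 clusters that the pools filled unequally. The shallower one, with a median of 2744 UMIs per nucleus, held 208 and 162 nuclei of the saline lanes against 97 and 86 of the risperidone lanes, and the other 162 and 200 against 331 and 307.

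**Figure D4:**
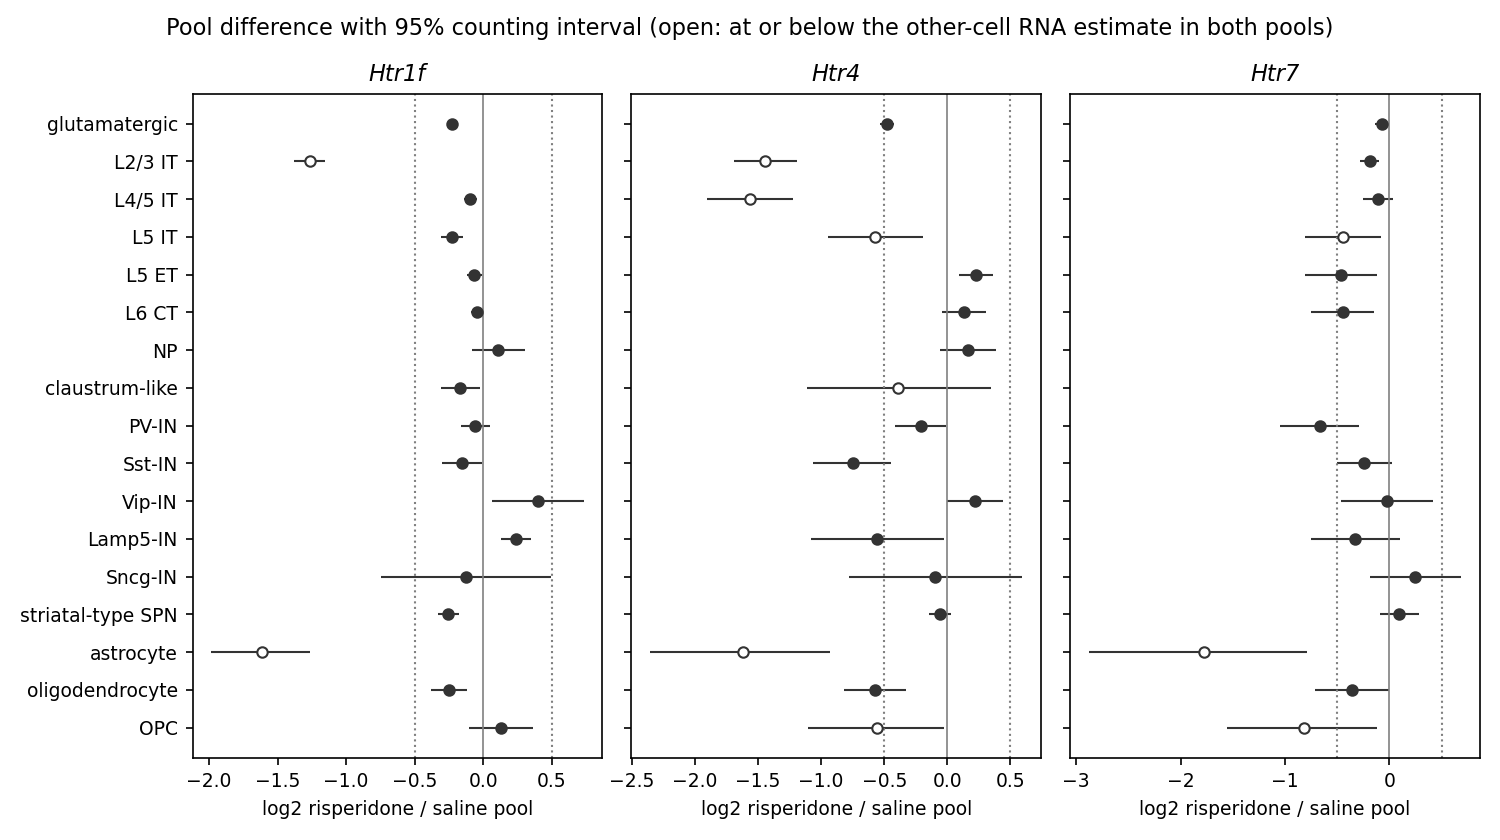
Log2 ratio of the risperidone over the saline pool (horizontal axis) for Htr1f, Htr4 and Htr7 in glutamatergic neurons and 16 classes, with bars for the 95% counting interval and dotted lines at 0.5 above and below 0; classes under 50 UMIs of a gene are left out. Open points mark classes whose count lay at or under the estimate for RNA of other cells in both pools, and they hold the largest falls, such as -1.27 for Htr1f in L2/3 IT and -1.77 for Htr7 in astrocytes.

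Above that estimate in both pools, Htr4 was lower in Sst interneurons, at 35.1 and 36.7 CPM in the saline lanes against 21.1 and 24.1 CPM in the risperidone lanes (-0.75, -1.06 to -0.44). The glutamatergic markers in that class went from 715 to 317 CPM (-1.26, -1.34 to -1.19), and their part in the fall was not tested. The call was lost in male nuclei alone, at 19.1 and 46.2 CPM in the saline lanes against 30.7 and 31.8 CPM (-0.13, -0.73 to 0.46). Female nuclei alone gave -1.51, at 43.8 and 37.3 CPM in the saline lanes against 14.5 and 14.9 CPM. Htr4 was also lower in Lamp5-IN (-0.55, -1.08 to -0.03), where the 2 clusters above differed in share. RNA of other cells was estimated there at 70.9% of the saline and 73.8% of the risperidone count. In oligodendrocytes Htr4 was lower too (-0.57, -0.82 to -0.33), with an estimate of 61.2% and 67.5% from 2 marker lists, neither of them neuronal. The glutamatergic markers in oligodendrocytes went from 2310 to 2085 CPM (-0.25, -0.28 to -0.21), beside 3287 and 3101 CPM in glutamatergic neurons themselves. The part of such neuronal RNA in the fall was not tested. In oligodendrocytes the direction turned in male nuclei alone (0.30, -0.48 to 1.08), while female nuclei alone gave -1.39, at 61.8 and 59.1 CPM in the saline lanes against 23.9 and 26.3 CPM. Htr7 was lower in PV interneurons, at 20.9 and 16.3 CPM in the saline lanes against 13.3 and 11.6 CPM in the risperidone lanes (-0.67, -1.05 to -0.29), where the glutamatergic markers went from 709 to 451 CPM. The fall of Htr4 in Lamp5-IN was under the size rule in male nuclei alone (-0.34) and without the first saline lane (-0.35), and that of Htr7 in PV-IN without the first saline lane (-0.49).

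Htr5a was lower in L4/5 IT, L5 ET and L6 CT neurons, with log2 folds of -0.57 (-0.93 to -0.22), -0.57 (-1.35 to 0.21) and -0.72 (-1.29 to -0.16), and had a fold below 0 in all 9 sums with 50 UMIs. Its L4/5 IT values were 5.07 and 6.26 CPM in the saline lanes against 3.92 and 4.03 CPM in the risperidone lanes. The L4/5 IT call was lost in male nuclei alone, whose lanes overlapped at 4.26 and 5.70 CPM against 4.58 and 4.57 CPM (-0.20, -0.93 to 0.55), without the second saline lane (-0.39), and with RNA of other cells taken out (-0.48). In L5 ET the fold stayed past 0.5 in size in 7 of 11 alternatives. Among others, the L5 ET call was lost without the first saline (-0.34) or the first risperidone lane (-0.32) and with RNA of other cells taken out (-0.46). In L6 CT the fold was -0.50, just under the rule, without the first saline lane and in male nuclei alone. Htr6 was lower in L5 IT neurons (-0.68, -1.46 to 0.09) on 61 UMIs. The intervals of Htr5a in L5 ET and Htr6 in L5 IT included 0.

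With both sexes together, Htr1b and Htr1d went in opposite directions in SPN, the named class where both had their highest CPM. Htr1d was lower in the risperidone pool with a log2 fold of -0.63 (-1.04 to -0.24), whereas female nuclei alone gave 0.34 (-0.34 to 1.07) and male nuclei alone, with under 50 UMIs, -1.87. Htr1b, with the lane values given above, had 0.49 (0.14 to 0.86), just under the size rule, and lanes that did not overlap, with 1.11 (0.46 to 1.82) in female and -0.14 (-1.08 to 0.78) in male nuclei alone. Within neither sex were the folds of Htr1b and Htr1d opposite in sign, both being above 0 in female and below 0 in male nuclei. Fewer of the SPN nuclei assigned a sex were male in the risperidone lanes (145 and 162, beside 561 and 543 female) than in the saline lanes (328 and 354, beside 433 and 451 female), and the part of this in the folds was not tested. Htr1b was past the rule in L4/5 IT neurons, at 2.03 and 1.71 CPM in the saline lanes against 3.29 and 3.63 CPM in the risperidone lanes (0.86, 0.34 to 1.41), where 14.3% of all genes were higher. The antisense neighbour of Htr1b cannot be told apart from it where reads were not assigned by strand, which is not given in the sources used here. The other higher pair was Htr3a in Vip-IN, with a log2 fold of 1.05 (0.20 to 1.96) on 17 UMIs in the saline pool and 41 in the risperidone pool, where 7.66% of all genes were higher. The same limit of strand holds for Htr3a and its antisense neighbour Gm32335. Female nuclei alone gave 0.35, and the interval included 0. In Sncg-IN its fold was 0.50 (-0.22 to 1.26), and the lanes overlapped, with a risperidone lane at 43.6 CPM and the other at 20.1 CPM, between the saline lanes.

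**Figure D5:**
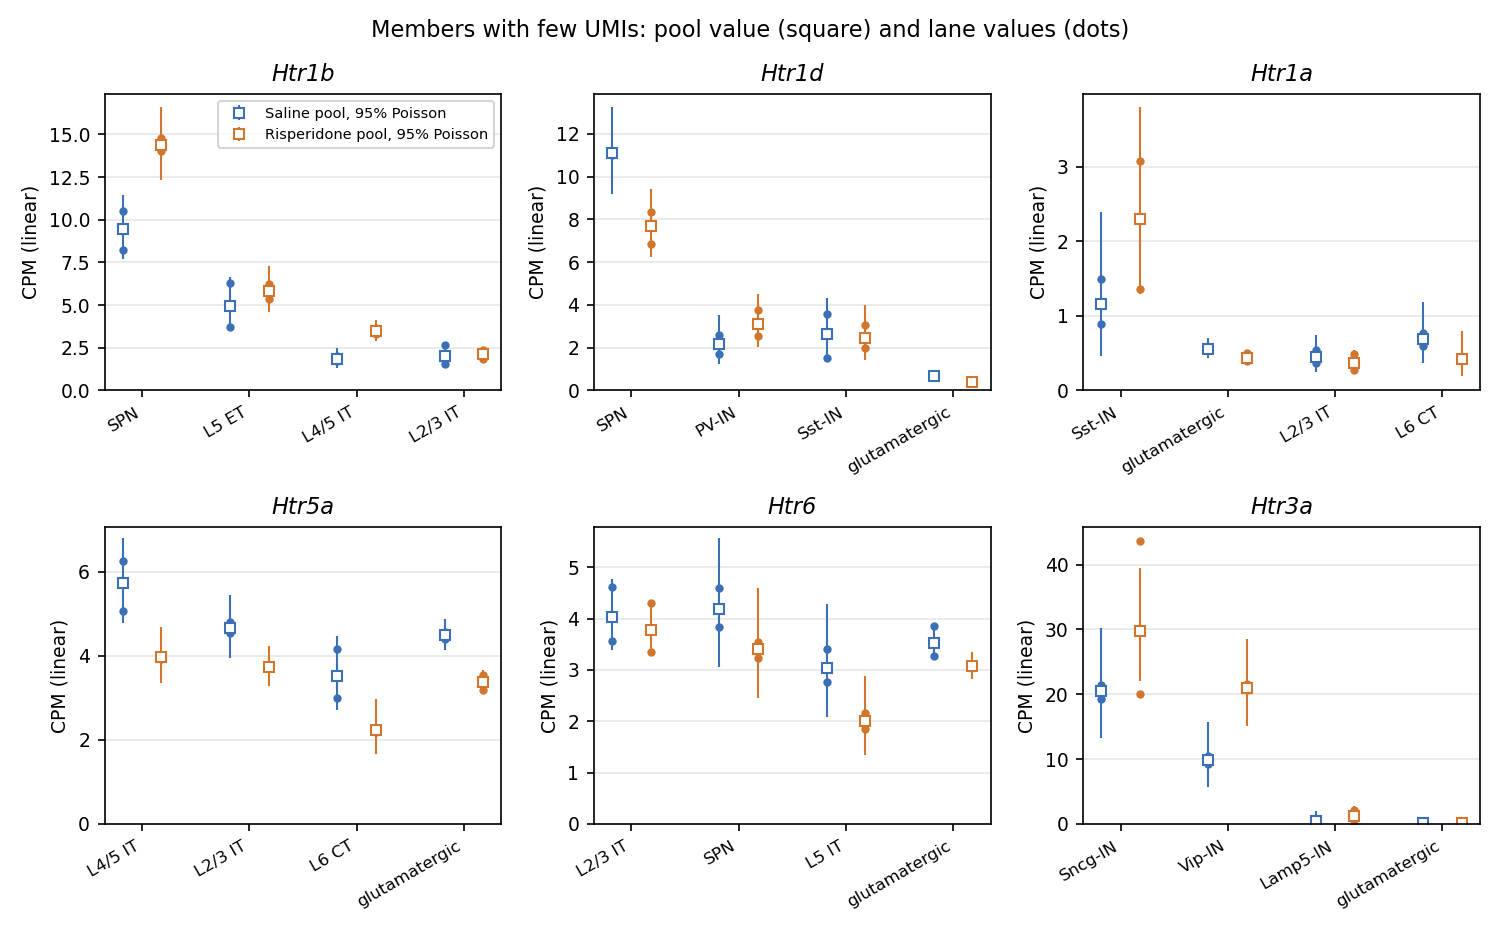
CPM of the 6 members with few UMIs in the classes named for each, with pool values as squares, 95% Poisson intervals as bars and the 2 lanes of each pool as dots, saline in blue and risperidone in orange, on linear axes from 0. With both sexes together, Htr1b in SPN is higher (8.20 and 10.5 against 14.8 and 14.0 CPM) and Htr1d lower (11.2 and 11.0 against 6.84 and 8.35 CPM) in the risperidone lanes. Within each sex alone the folds of these genes had the same sign.

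Of 41 genes listed for serotonin handling and for signalling below these receptors, 38 had 50 UMIs in glutamatergic neurons, and 6 were lower and 2 higher by the same rule, beside 12.4% lower and 16.0% higher over all genes, with a median log2 fold of -0.14. The share that was higher lay below that background, and the share that was lower lay near it, slightly above. The median log2 fold over all genes was 0.02. Among the adenylyl cyclases, which make cyclic AMP, Adcy5 (-0.67, -0.71 to -0.62) and Adcy6 (-0.65, -0.72 to -0.59) were lower of 8. Among the 5 inhibitory G protein subunits Gnaz was lower (-0.52, -0.57 to -0.47). None of the 2 stimulatory G protein subunits, 6 protein kinase A subunits, 4 GIRK potassium channel subunits or 4 receptor partners passed in either direction. Of the genes for making, moving or breaking down serotonin, Maob (-0.79) and Ddc (-1.56) were lower and the vesicular transporter Slc18a2 was higher (1.68), the last from 0.90 and 0.80 CPM in the saline lanes to 2.95 and 2.78 CPM in the risperidone lanes. Of the remaining serotonin receptors Htr2a (-0.61) was lower and Htr2b (2.70) higher, with Htr2b at 0.31 and 0.29 CPM in the saline lanes. In the other classes 5 were lower and 1 higher of 30 in PV-IN, 2 and 0 of 30 in Sst-IN, 2 and 2 of 27 in Vip-IN, 2 and 0 of 29 in Lamp5-IN and 4 and 1 of 33 in SPN. Over all genes 9.95% were lower and 11.6% higher in PV-IN, 10.5% and 9.89% in Sst-IN, 8.23% and 7.66% in Vip-IN, 7.94% and 11.1% in Lamp5-IN and 10.2% and 11.3% in SPN. Adcy5 in SPN was at 615 and 579 CPM in the saline lanes against 328 and 331 CPM in the risperidone lanes (-0.96, -1.02 to -0.91).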

How the data were processed

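Single-nucleus libraries (10x Genomics GEM-X) of mouse cortex were processed by the authors with Cell Ranger 8.0.1 on mm10 (submitters' processing notes) with intronic reads counted, and the deposited counts are whole UMIs per gene and nucleus for 4 lanes, 2 per pool; no further scaling had been applied. The minimum was 500 genes per nucleus, mitochondrial UMIs could make up 5% at most, and doublet-like nuclei were removed from simulated doublets (9.31% to 12.0% per lane). Counts scaled to 10000 per nucleus, 2000 variable genes without any serotonin receptor, 30 principal components and 20 neighbours gave Louvain clusters at resolution 0.5, and clusters were named from marker lists (mean log2 ratio of at least 1.5 on at least 3 markers, and the next list at most 0.65 of the best). These naming thresholds, and the 3 lists behind the estimate of RNA from other cells, were set after marker levels were seen. Counts were summed per class and lane. Folds used TMM factors from edgeR 4.0.16 and conditional binomial intervals, levels used exact Poisson intervals and shares Clopper-Pearson intervals, all at 95%. edgeR's quasi-likelihood test was not run, since each condition is 1 pool. The fold code was tested on simulated data. The members and gene lists were chosen with earlier results of these data known. All 9 members are named, pathway genes were named where past the size rule in glutamatergic neurons, and the 3 most similar genes for members with at least 500 UMIs among genes with at least 20 CPM in a class of at least 100 nuclei. Of 32285 gene identifiers 32235 were found in GENCODE vM21, an earlier release than the one counted. Alternatives were DESeq2 1.42.0 size factors, plain CPM, each lane left out, a floor of 2000 UMIs per nucleus, stricter class calls, RNA of other cells taken out, female or male nuclei alone, a minimum of 10 CPM or none, equal weight of subclasses, and, chosen after seeing the data, glutamatergic neurons without 2 clusters whose share differed between the pools. Python 3.11.15 and scipy 1.17.1 were used. Microglia, endothelial, mural and VLMC nuclei were not compared between pools.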

Additional observations from a re-analysis of the deposited data

Results flagged for a closer look

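Nuclei with Xist UMIs and no UMIs of Y-linked genes were taken as female and the reverse as male, within each pool. In 3 of the 45 pairs of a member and a class with at least 50 UMIs in each sex, the lanes of the pools, after TMM scaling, were separated in opposite directions in female and male nuclei, and these differences between the sexes were not tested. The share of all genes separated in this way is not given here, so the 3 of 45 cannot be set against a background. Htr7 in glutamatergic neurons had a log2 fold of 0.074 in female nuclei (24.5 and 24.7 CPM in the saline lanes, 27.2 and 28.0 CPM in the risperidone lanes) and -0.22 in male nuclei (35.0 and 32.2 CPM against 30.7 and 29.6 CPM). Htr1f in PV interneurons had -0.23 in female nuclei and 0.15 in male nuclei. Htr4 in SPN had 0.23 in female nuclei (190 and 184 CPM in the saline lanes, 237 and 225 CPM in the risperidone lanes) and -0.57 in male nuclei (212 and 202 CPM against 141 and 163 CPM), whereas both sexes together gave -0.06, with the sexes mixed differently in the SPN of the 2 pools as given above. On unscaled CPM the lanes of Htr7 in L2/3 IT (0.03 in female and -0.42 in male nuclei) and of Htr1f in SPN (0.11 and -0.69) were also separated in opposite directions.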

How the results depend on the processing

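No paired analysis was possible because each condition is 1 pool, the lane numbers are technical and no result comes from a test. Of the members in glutamatergic neurons, where 1 was lower and 0 higher, 2 were lower with DESeq2 size factors, with nuclei of at least 2000 UMIs and with no minimum of UMIs, 3 under stricter class calls, 4 in female nuclei alone, and 0 in male nuclei alone (of 6) or at 10 CPM or more (of 3), where Htr1d had too few UMIs or too low a level to be called. Over all genes there, 12.4% to 12.8% were lower with DESeq2 size factors, the UMI minimum per nucleus, stricter calls or female nuclei, 14.1% with no minimum, 9.95% in male nuclei and 7.46% at 10 CPM or more. Then 1 member was higher with RNA of other cells taken out and in male nuclei alone, where 23.8% and 14.4% of all genes were higher. With a lane left out the counts ran from 1 to 3 lower (3 without the second risperidone lane, 2 without the first lane of either pool) and from 0 to 1 higher (1 without the first saline lane). Over all genes there, 11.9% to 12.5% were then lower and 15.2% to 16.9% higher. Over all pairs of a member and a class, 2 were higher and 19 lower; with RNA of other cells taken out 6 were higher and 8 lower of 56 (22.1% and 4.51% over all genes, whose median moved up by 0.046 to 0.556 over the classes, by 0.17 in glutamatergic neurons, where 4001 genes were higher and 1005 lower, against 2949 and 2279), at 10 CPM or more 1 and 9 of 47 (6.96% and 9.05% over all genes), and with no minimum 35 were lower of 148 (11.7% over all genes). In male nuclei alone 9 were lower of 45 (10.7% over all genes). With a lane left out 1 to 7 were higher, 7 without the second saline lane, 5 without the second risperidone lane, 4 without the first saline lane and 1 without the first risperidone lane, and 16 to 20 lower. Over all genes in the same classes 11.0% to 13.8% were then higher and 10.8% to 12.2% lower. Plain CPM moved the median of all genes up by 0.038 to 0.116 and gave 3 higher and 14 lower, with 3573 genes higher and 1766 lower in glutamatergic neurons. Over all genes in the same classes 15.1% were higher and 7.89% lower with plain CPM. Among called pairs and the glutamatergic sum at equal weight, directions turned for Htr1d in SPN in female nuclei (0.34, -0.34 to 1.07), for Htr4 in oligodendrocytes in male nuclei (0.30, -0.48 to 1.08), and for Htr4 in glutamatergic neurons at equal subclass weight (0.08). Among classes with at least 15 UMIs of a gene, the highest was another for Htr1a (L6 CT) without the second risperidone lane, which left Sst-IN under that minimum, for Htr4 (Vip-IN) without the first saline lane and for Htr6 (astrocytes) without the first risperidone lane or (SPN) under stricter class calls. Of all 76 pairs, called or not, the direction turned in 13 in female and 17 in male nuclei alone, in 9 with plain CPM, in 17 of 63 with RNA of other cells taken out and in 4 to 10 with a lane left out (10 without the second saline lane). The causes were not tested. Without the 2 clusters that differed in share, which was tried after the data had been seen, glutamatergic neurons gave 1 lower and 0 higher, beside 11.4% lower and 15.9% higher over all genes. With 1 pool per condition, the spread between animals is unknown, and Htr1a and Htr3a were limited by their 263 and 282 UMIs.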
